A study of Homo sapiens with 6 samples.

Results

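HERC5, IFIT1, IFIT2, RSAD2, SAMD9, XAF1, BST2 and IRF9 are interferon-stimulated genes that lay apart in opposite directions between cells given a CSRP2 siRNA and control cells. The 8 genes are among 14884 genes with a named probe set on the array, and each was given by 1 probe set. They were picked by the size and direction of this same difference between the groups, so their own differences are given below as a description, with an interval and without a test. RNA was taken from the established cell line Hs578T, human breast carcinoma cells of mesenchymal shape without oestrogen receptor. The siControl group had been transfected with a non-targeting siRNA and the siCSRP2 group with siRNA against CSRP2, a LIM domain protein that bundles actin filaments. Both groups therefore carried transfected double-stranded RNA and the lipid reagent Lipofectamine 2000, and no untransfected cells are part of the comparison. Each group held 3 HuGene 2.0 arrays, numbered 1 to 3 in the labels. Cells were moved to a new plate 24 h after transfection and RNA was taken 48 h later. The protocol of all 6 samples lists 10% serum and 0.01 mg/ml insulin. Neither the siRNA sequences nor how many siRNAs were used per gene is given in the sources used here.

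Type I interferon binds a cell surface receptor and, through the kinases JAK1 and TYK2, activates a transcription factor complex containing IRF9 that binds the interferon-stimulated response element in promoters. IRF3, activated when sensors such as RIG-I or TLR3 meet foreign nucleic acid, can drive part of the same genes directly. The products are mostly antiviral effectors: IFIT1 and IFIT2 bind viral RNA or curb its translation, RSAD2 (viperin) makes a chain-terminating nucleotide, HERC5 is the ligase that attaches the ubiquitin-like modifier ISG15 to proteins, SAMD9 restricts poxviruses, and BST2 (tetherin) holds budding virions at the cell membrane. XAF1 binds the apoptosis inhibitor XIAP.

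Promoter letters are shown for these genes because the members share one inducer and yet lay on both sides of the control level. RefSeq promoter windows (GRCh38.p14, 250 bases before to 50 after a transcription start) were found for 7 of the 8 genes, as 9 windows, and not for IFIT2. Windows were searched on both strands for the core of the interferon-stimulated response element (GAAA, any 2 bases, GAAA, called the response core here), for the same letters with 1 base between them, GAAANGAAA, a search added after the sequences had been seen, and for the STAT dimer element TTCNNNGAA, which reads the same on both strands. Matches can overlap. The stretches below run 5′ to 3′ on the gene's strand and matches are in capitals, opposite-strand matches appearing as TTTC on both sides. They are HERC5 at chr4:88456969-88457068 (plus strand), IFIT1 at chr10:89392473-89392572 (plus), SAMD9 at chr7:93118030-93118129 (minus), RSAD2 at chr2:6877607-6877706 (plus, the downstream of its 2 windows), BST2 at chr19:17405671-17405780 (minus), XAF1 at chr17:6755946-6756045 (plus, the downstream of its 2 windows) and IRF9 at chr14:24161165-24161264 (plus).
HERC5: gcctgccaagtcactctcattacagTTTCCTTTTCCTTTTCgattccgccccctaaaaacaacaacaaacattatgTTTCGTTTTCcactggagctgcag
IFIT1: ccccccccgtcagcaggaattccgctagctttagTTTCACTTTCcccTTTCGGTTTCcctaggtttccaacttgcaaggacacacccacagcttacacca
SAMD9: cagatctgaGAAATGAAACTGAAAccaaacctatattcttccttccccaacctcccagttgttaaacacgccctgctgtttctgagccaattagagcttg
RSAD2: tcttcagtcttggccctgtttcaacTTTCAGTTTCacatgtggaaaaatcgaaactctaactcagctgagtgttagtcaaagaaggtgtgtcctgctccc
BST2: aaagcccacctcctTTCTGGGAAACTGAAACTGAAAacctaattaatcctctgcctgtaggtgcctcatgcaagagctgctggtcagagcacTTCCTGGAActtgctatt
XAF1: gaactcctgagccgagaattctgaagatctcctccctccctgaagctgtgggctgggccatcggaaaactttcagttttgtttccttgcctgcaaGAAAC
IRF9: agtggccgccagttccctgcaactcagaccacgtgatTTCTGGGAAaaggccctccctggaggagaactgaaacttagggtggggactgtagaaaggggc

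HERC5, IFIT1, SAMD9 and RSAD2, all higher on the siCSRP2 arrays, held the response core in a window, and so did BST2, which was lower. HERC5 had 3 such matches, beginning 125, 119 and 74 bases before its start, and BST2 had 2 overlapping ones at 130 and 124. XAF1 and IRF9 held no response core in these windows. XAF1 held GAAANGAAA beginning 5 bases before the start, of which the stretch above shows the part before the start. RSAD2's upstream window held 4 GAAANGAAA matches and SAMD9 1. TTCNNNGAA occurred in BST2, at 136 and 58 bases, and in IRF9, at 63 bases, and in no window of the other members. Of all 35116 windows, 3.57% held the response core, 3.12% GAAANGAAA and 7.66% TTCNNNGAA. Among 64 other interferon-stimulated genes on a list fixed for this work, 49 had a window, of which 31 held the response core and 13 TTCNNNGAA. By windows, the response core was in 54.5% of those of that list and in 55.6% of the members' windows. TTCNNNGAA was in 22.7% of the windows of that list and in 22.2% of the members' windows. A match describes the letters and is not evidence that a factor binds there.

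The arrays and the target frame what follows. Medians over all 53617 probe sets ran from 2.70 to 2.76 on siControl and from 2.80 to 2.82 on siCSRP2 arrays (log2 values). Across genes, siControl 3 correlated with the siCSRP2 arrays (mean r = 0.966) as closely as with the other controls (mean r = 0.967). CSRP2 itself measured 3.69, 4.01 and 4.35 on siControl and 3.25, 3.76 and 4.26 on siCSRP2 arrays, a difference of -0.26 (SE 0.26) that missed the threshold (limma adjusted p = 0.583), with CSRP2 lower in 3 of 3 pairs of equal number (-0.44, -0.24 and -0.09) and an adjusted p of 0.188 with the replicate block. These values leave the labels unchecked by the target, and siCSRP2 means the arrays labelled siCSRP2. The mesenchymal markers VIM, FN1 and AXL were bright (lowest array 6.98, 10.35 and 6.21), and S100A4 was the dimmest of that list, at brightness percentile 72.5. ESR1 and PGR measured at most 2.94 and 2.64, dimmer than the median gene. Of 9 luminal epithelial markers with a probe set 5 lay below the median brightness. The others did not: KRT18 was bright, at percentile 99.1, and GATA3, KRT8 and EPCAM lay at percentiles 70.7, 69.5 and 59.9. Of 7 mesenchymal markers with a probe set 5 fell and none rose, where 6.54% of all genes fell and 0.8% rose, AXL by the most (-1.73, SE 0.24, limma adjusted p = 0.00833), and the part of this in the results below was not tested. Of 12 leukocyte markers 3 had a named probe set, CD2, NKG7 and CD14, and their differences lay between 0.00 and 0.22 with none past the test (0 also at an unadjusted p under 0.05). In RNA from whole wells, a change in every cell and a larger change in some of the cells cannot be told apart.

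The ISG15 ligase HERC5 (probe set 16968765) had the largest difference of the 8 genes. Its log2 values were 3.98, 4.17 and 4.16 on siControl 1, 2 and 3 and 5.10, 5.53 and 6.01 on siCSRP2 1, 2 and 3. The lowest siCSRP2 array lay 0.93 above the highest control, and the controls were tightly grouped. The group means were 4.11 ± 0.11 and 5.55 ± 0.46 (SD, n = 3), a difference of 1.44 (SE 0.21, 95% interval 0.97 to 1.92), or 2.72-fold.

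The RNA-binding effectors IFIT1 and IFIT2 are neighbouring genes of one family. IFIT1 (probe set 16707196) measured 7.07, 7.11 and 7.22 on siControl and 7.50, 8.02 and 8.32 on siCSRP2 arrays. The controls spanned little and siCSRP2 1 lay nearest to them. The IFIT1 difference was 0.82 (SE 0.19, 95% interval 0.38 to 1.25), or 1.76-fold. IFIT2 (probe set 16707180) measured 7.67, 7.56 and 7.76 on siControl and 8.25, 8.59 and 8.78 on siCSRP2 arrays. Here too siCSRP2 1 was the lowest of its group, without overlap with the controls. Its difference was 0.88 (SE 0.15, 95% interval 0.54 to 1.21), or 1.84-fold. Members of this family share sequence, and cross-hybridisation between their probe sets was not assessed.

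RSAD2 (viperin, probe set 16876764) measured 7.81, 7.86 and 8.48 on siControl and 8.79, 8.91 and 9.14 on siCSRP2 arrays. siControl 3 lay closer to the lowest siCSRP2 array, by 0.30, than to either other control. The difference was 0.89 (SE 0.19, 95% interval 0.46 to 1.33), or 1.86-fold. SAMD9, the poxvirus restriction factor (probe set 17059771), measured 6.83, 6.97 and 7.02 on siControl and 7.37, 7.94 and 7.85 on siCSRP2 arrays. Its siCSRP2 2 and 3 values lay together, with siCSRP2 1 between them and the controls. The SAMD9 difference was 0.78 (SE 0.16, 95% interval 0.42 to 1.15), or 1.72-fold.

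XAF1, the XIAP-binding protein (probe set 16830202), had the largest difference downwards. It measured 5.79, 5.75 and 4.80 on siControl and 4.48, 4.06 and 4.25 on siCSRP2 arrays. siControl 1 and 2 lay together and siControl 3 lay nearer the siCSRP2 arrays, 0.32 above the highest of them. The means were 5.45 ± 0.56 and 4.26 ± 0.21 (SD, n = 3), a difference of -1.19 (SE 0.25, 95% interval -1.77 to -0.61), which was -1.51 without siControl 3.

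BST2 (tetherin, probe set 16870200) measured 4.86, 4.72 and 4.31 on siControl and 3.56, 3.82 and 3.83 on siCSRP2 arrays. siControl 3 was again the lowest control and siCSRP2 1 the lowest array of all. The BST2 difference was -0.90 (SE 0.16, 95% interval -1.26 to -0.53). IRF9, a DNA-binding subunit of the interferon-activated complex (probe set 16782687), measured 4.71, 4.74 and 4.64 on siControl and 4.25, 4.19 and 4.12 on siCSRP2 arrays. Both groups were tight, with SDs of 0.05 and 0.07, and the gap between them was 0.39. The IRF9 difference was -0.51 (SE 0.10, 95% interval -0.74 to -0.28), which moved by over 1.5 times, to -0.33, after quantile normalization.

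**Figure D1:**
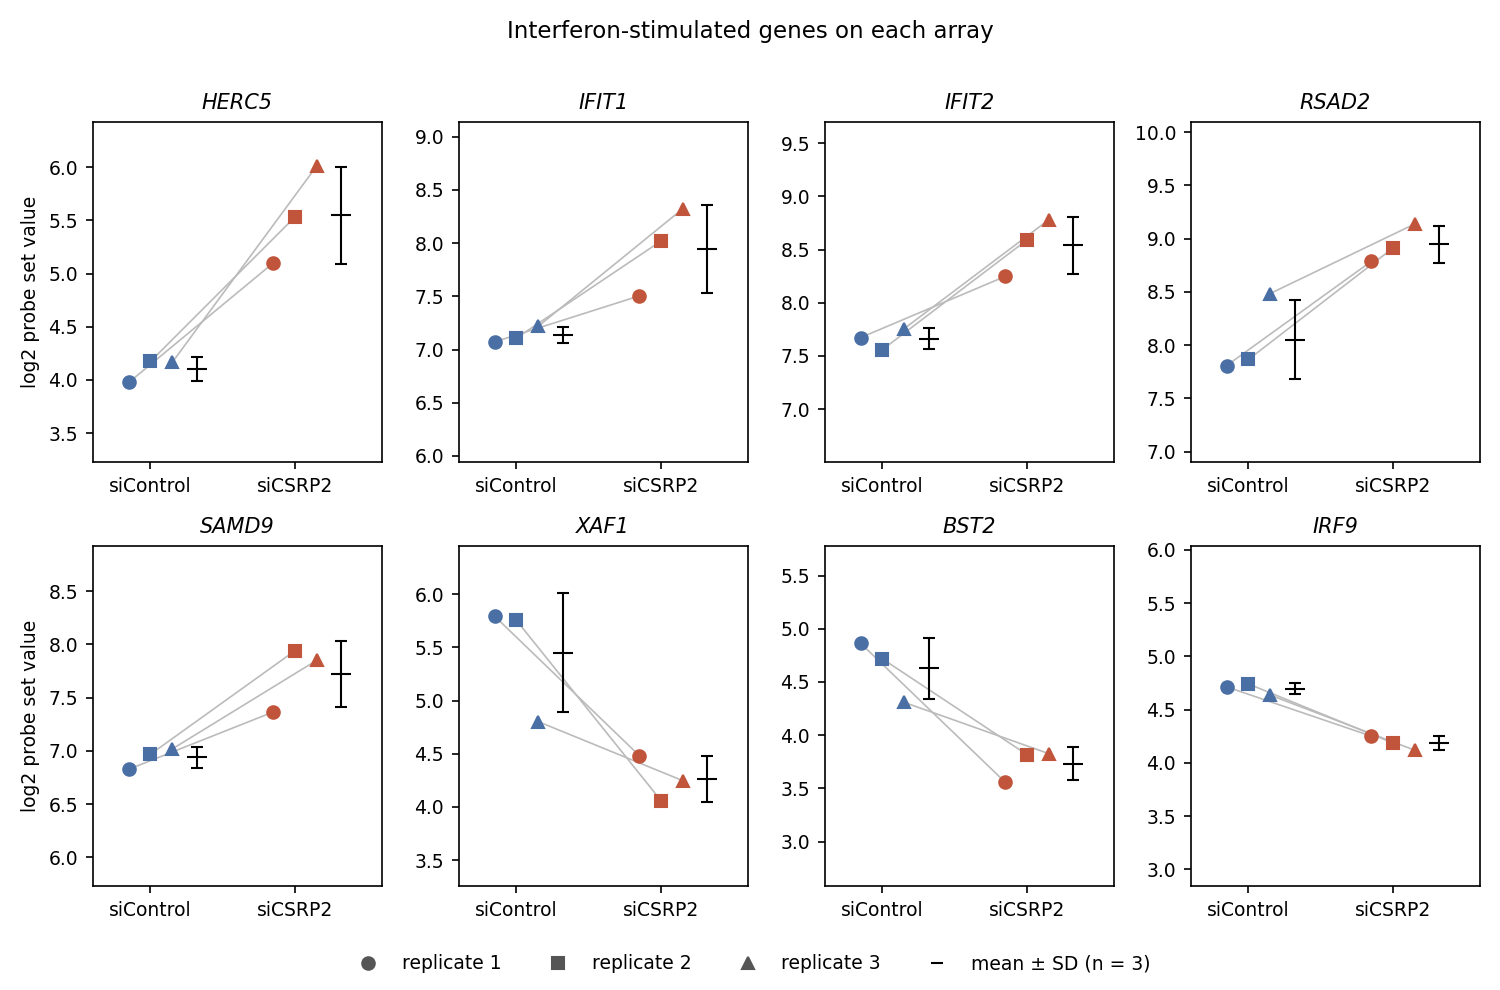
Log2 probe set value of each of the 8 genes on the 6 arrays, with every panel spanning the same 3.2 log2 units (y axis) and same-numbered arrays joined by grey lines. HERC5, IFIT1, IFIT2, RSAD2 and SAMD9 were higher and XAF1, BST2 and IRF9 lower on every siCSRP2 array than on any siControl array. Bars show mean ± SD, n = 3.

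All 8 genes had groups that did not overlap, 5 higher and 3 lower, where 27.7% of all genes had groups that did not overlap (11.5% higher and 16.2% lower). Since this contrast chose the genes, nothing is read from that count. In pairs of equal replicate number the 5 genes were higher in 3 of 3 pairs each and the other 3 genes lower in 3 of 3. Groups that do not overlap give this under any pairing, so it adds nothing to that count. The smallest pair difference of a higher gene was 0.43 (IFIT1, pair 1) and the largest was 1.85 (HERC5, pair 3). Of the lower genes, IRF9 varied least between pairs, from -0.56 to -0.46, and XAF1 most, from -1.69 to -0.55. By brightness, IFIT1, IFIT2, RSAD2 and SAMD9 lay between percentiles 98.5 and 99.6 of all genes, and HERC5, XAF1, BST2 and IRF9 between 78.2 and 86.7. Brightness ranks probe sets and does not compare transcript amounts.

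The order of arrays within a group was not used to choose the genes, though it can follow the group difference, which was. siCSRP2 1 was the lowest siCSRP2 array for all 5 higher genes, where it was lowest for 32.1% of all genes. siCSRP2 3 was the highest for 4 of them, the exception being SAMD9, where it was highest for 33.2% of all genes. As a mean over the 5 genes, relative to the siControl mean, siCSRP2 1, 2 and 3 lay at 0.62, 1.02 and 1.24. The main axis of variation over all genes (first principal component, 63.2% of the variance) held the same order. On it siCSRP2 1, 2 and 3 lay at 14.0, 20.0 and 30.7, siControl 3 at -2.05 and siControl 1 and 2 at -31.5 and -31.2. That axis also parts the groups, so such an order is not particular to the 5 genes. The 3 lower genes shared no such order on these arrays, and their mean lay at -0.83, -0.90 and -0.86. They differed instead among the controls: siControl 3 was the lowest control for XAF1, BST2 and IRF9, as it was for 41.2% of all genes. Their mean was -0.34 on siControl 3 against 0.20 and 0.15 on siControl 1 and 2. For 4 of the 5 higher genes siControl 3 was the highest control, as it was for 35.0% of all genes, and the mean of the 5 on it was 0.15. These are counts over genes measured on the same 6 arrays, and genes are not replicates.

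**Figure D2:**
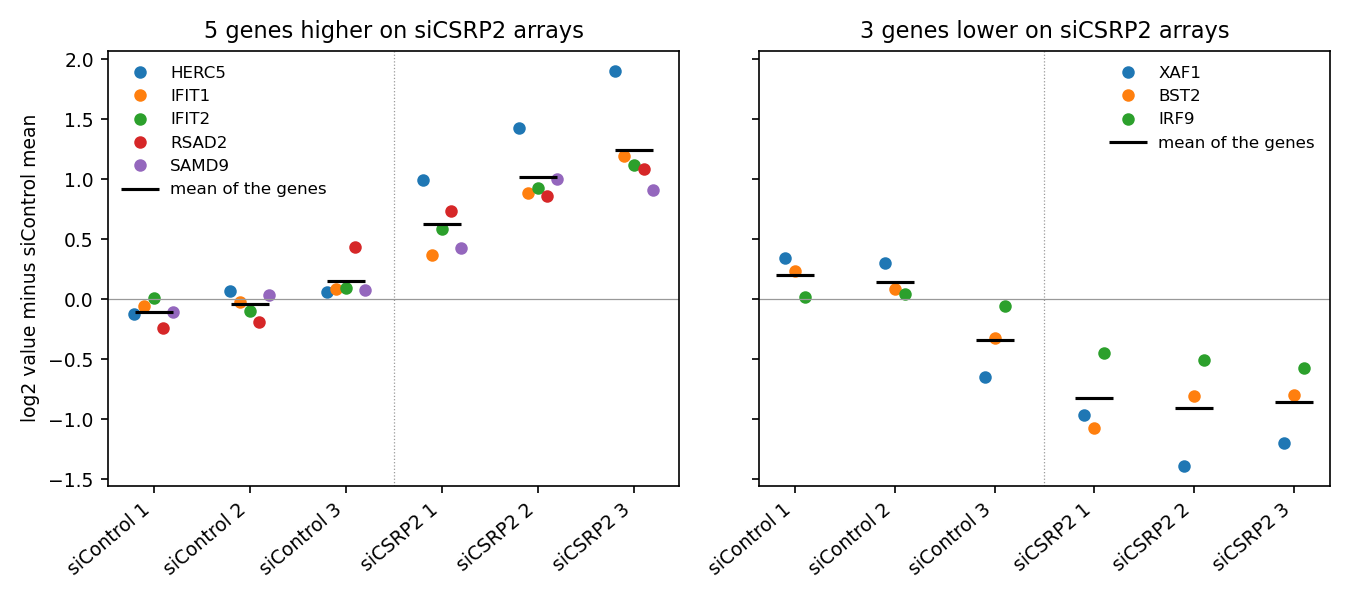
Log2 value of each gene minus its own siControl mean (y axis) on each array (x axis), with the 5 higher genes on the left, the 3 lower genes on the right and black bars for the mean over the genes of a panel. Left bars reach 0.62, 1.02 and 1.24 on the siCSRP2 arrays, while right bars stay between -0.90 and -0.83 there and siControl 3 lies at -0.34.

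HERC5 acts at the end of the ISG15 conjugation chain, in which UBA7 activates the modifier, UBE2L6 carries it, HERC5 attaches it and USP18 removes it. The activating and carrying enzymes fell while their ligase was higher. UBA7 measured 4.77, 4.72 and 3.69 on siControl and 3.03, 3.11 and 2.49 on siCSRP2 arrays, a fall of 2.85-fold (log2 difference -1.51, SE 0.29, limma adjusted p = 0.0215). Its siCSRP2 values lay near the medians of those arrays (2.80 to 2.82), so the fall may be understated. UBE2L6 measured 5.15, 5.14 and 4.58 against 4.12, 3.46 and 3.28, a fall of 2.52-fold (-1.34, SE 0.24, limma adjusted p = 0.0169). Both had groups that did not overlap and so were lower in 3 of 3 pairs. For both, siControl 3 was the control nearest to the siCSRP2 arrays. ISG15 itself varied widely, with 6.78, 6.52 and 7.39 on siControl and 6.56, 7.81 and 8.33 on siCSRP2 arrays, and did not pass (0.67, SE 0.41, limma adjusted p = 0.366). Its siCSRP2 1 array lay within the controls. USP18 (0.56, SE 0.21, adjusted p = 0.148) and HERC6, a relative of HERC5 (0.70, SE 0.24, adjusted p = 0.113), did not pass either (limma). UBA7 and UBE2L6 did not pass without siControl 1, siControl 2, siCSRP2 2 or siCSRP2 3, with 5 arrays left, and passed without either other array.

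**Figure D3:**
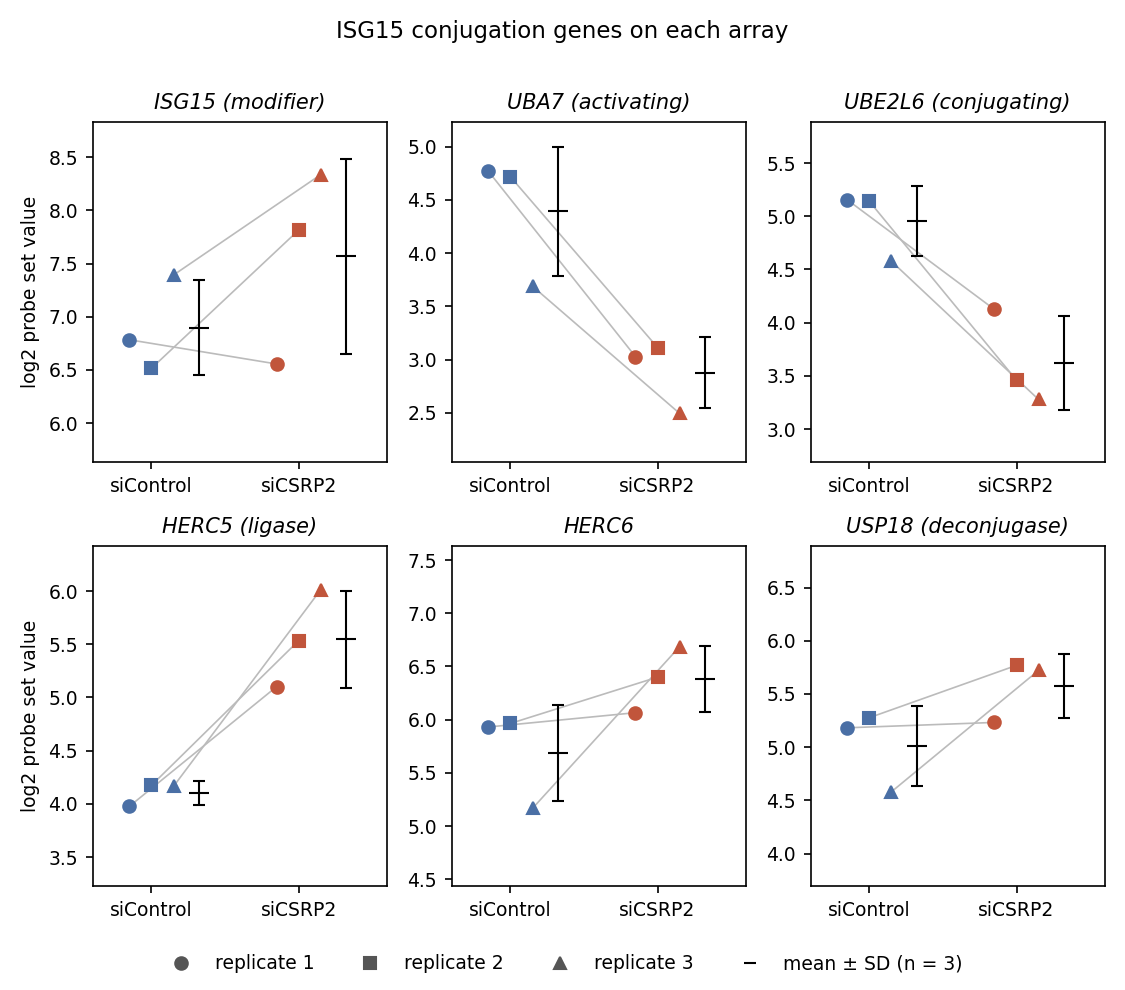
Log2 probe set value (y axis, 3.2 log2 units in each panel) of the modifier ISG15, its enzymes UBA7, UBE2L6 and HERC5, the HERC5 relative HERC6 and the deconjugating enzyme USP18 on each array, with mean ± SD, n = 3. UBA7 and UBE2L6 are lower and HERC5 higher on all siCSRP2 arrays, whereas ISG15 on siCSRP2 1 (6.56) lies within the siControl range.

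Relatives of the other members lay on both sides as well. SAMD9L, the neighbouring paralogue of SAMD9, measured 6.23, 6.31 and 5.53 on siControl and 5.43, 5.21 and 4.82 on siCSRP2 arrays, the opposite side to SAMD9. Its difference of -0.87 (SE 0.23) did not pass (limma adjusted p = 0.0551) but passed once replicate number was a block (adjusted p = 0.00337). IFIT3, which binds IFIT1 and IFIT2, measured 8.21, 8.39 and 8.38 against 8.63, 8.68 and 8.82, on the same side as both (0.38, SE 0.11, limma adjusted p = 0.0762, and 0.0471 with the block). IFIT5 lay at -0.26 (SE 0.20, limma adjusted p = 0.465). Of the inhibitors of apoptosis near XAF1, XIAP differed by 0.20 (SE 0.12) and BIRC2 by -0.19 (SE 0.10), and neither passed (limma adjusted p = 0.373 and 0.3). Of the IRF factors, IRF1, IRF2, IRF3, IRF4, IRF5, IRF7 and IRF8 had differences between -0.18 and 0.15, and none passed (limma adjusted p from 0.426 to 0.986), and the sign of IRF1, IRF2, IRF4 and IRF8 changed with the scaling. Of the HERC ligases without a known role in ISG15 conjugation, HERC3 (limma adjusted p = 0.281) lay at -0.39, HERC2 at -0.13, HERC4 at -0.11 and HERC1 at 0.03, the last 2 changing sign with the scaling, and IFIT1B lay at 0.02 with the same limit. CMPK2, the neighbour of RSAD2, was not analysed here, as no probe set was named for it.

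Of the 39 other interferon-stimulated genes with a named probe set, 27 had a difference below 0 and 12 above, where 6986 of all genes lay below and 7898 above, and these splits were not tested against each other. Of the 39, 4 fell, none rose and 35 did not pass, 10.3% past the threshold against 7.34% of all genes (0.8% rising and 6.54% falling), a share near that background. At an unadjusted p under 0.05, 5 of the 39 were higher and 12 lower, where 940 of all 14884 genes were higher and 2583 lower. Both sets lean to the lower side, and at this cut the share of the 39 is the larger on each side, which was not tested. The median log2 difference of the 39 was -0.21, against 0.02 over all genes. Of the 39, 4 lay below the median brightness. With the dimmest 50% of genes left out, the median was -0.25 over 35 list genes and -0.15 over all 7442 genes. IFITM2, which blocks virus entry, had the largest fall: it measured 6.71, 7.39 and 6.42 on siControl and 5.40, 5.63 and 4.90 on siCSRP2 arrays (-1.53, SE 0.26, limma adjusted p = 0.0153). IFITM2 is nearly identical to IFITM1 and IFITM3 over much of its length, so the signal may be shared, and those 2 probe sets differed by -0.19 and -0.27 without passing. NMI, an interferon-induced partner of STAT proteins, fell from 3.90 ± 0.42 to 2.92 ± 0.33 (SD, n = 3; -0.97, SE 0.23, limma adjusted p = 0.0423). On siCSRP2 arrays NMI lay near the array medians, so its fall may be understated. UBA7 and UBE2L6 were the other falls. With the dimmest 50% of genes left out, 6 of 35 list genes fell and none rose, against 1141 falls and 149 rises among 7442 genes.

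With a replicate block, 3 of the 39 rose and 8 fell, 28.2% against 15.8% of all genes (2.67% rising, 13.1% falling). The rises were OASL (0.51), an OAS-like protein that enhances RIG-I signalling, IFI44 (0.86) and IFIT3, and the added falls were SAMD9L, IFI35 (-0.82), the ubiquitin ligase TRIM21 (-0.67) and the double-stranded RNA kinase EIF2AK2 (-0.54). IFI44 measured 6.76, 7.09 and 7.79 on siControl and 7.23, 8.35 and 8.66 on siCSRP2 arrays, so its groups overlapped. OASL and IFIT3 also rose after quantile normalization and after cyclic loess, which gave 2 rises and 4 falls each. Over genes, quantile normalization gave 210 rises and 666 falls and cyclic loess 197 and 687, against 119 and 974 on the deposited values. The count without the block shifted when 1 array was left out. It was 0 without siControl 1, siControl 2 or siCSRP2 3 (11, 13 and 12 at an unadjusted p under 0.05). It was 1 without siCSRP2 2, 9 without siCSRP2 1 and 14 without siControl 3. The count over all genes, 1093, shifted too, to 157 without siControl 1 and 91 without siControl 2. Without siCSRP2 2 or siCSRP2 3 it was 194 and 285, without siCSRP2 1 877 and without siControl 3 2620. siControl 3 was the lowest control for 29 of the 39 genes, 74.4% against 41.2% of all genes.

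**Figure D4:**
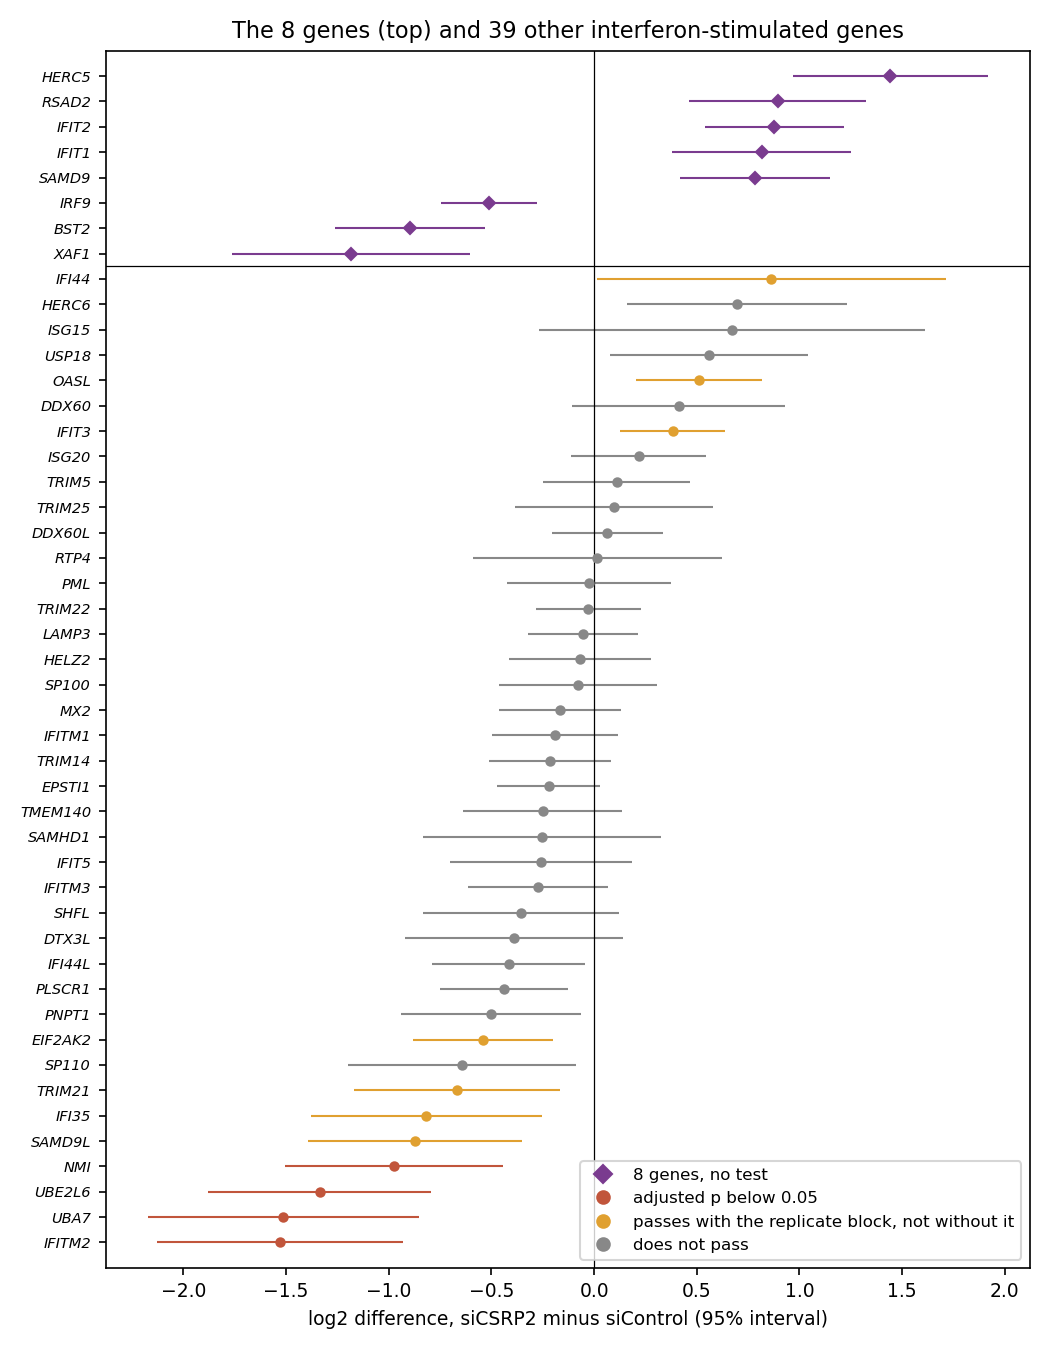
Log2 difference, siCSRP2 minus siControl (x axis), with its 95% interval for the 8 genes (top, purple diamonds, no test) and for 39 other interferon-stimulated genes (circles). 4 of the 39 fell (red) and 7 more did not pass in that fit but did once the replicate block was added (orange); intervals are not adjusted for the number of genes, so some that miss 0 did not pass.

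Genes that sense nucleic acid and relay the interferon signal were tested next. All 21 listed interferon ligands lacked a named probe set and were not analysed here. Of 21 sensors, adaptors and their kinases with a probe set, 3 fell and none rose (14.3% past the threshold against 7.34% of all genes). At an unadjusted p under 0.05, 3 were higher and 6 lower, against 940 and 2583 of all 14884 genes. TLR3, the endosomal receptor for double-stranded RNA, measured 4.54, 4.52 and 3.25 on siControl and 2.95, 2.78 and 2.80 on siCSRP2 arrays (-1.26, SE 0.31, limma adjusted p = 0.0449). siControl 3 lay far below the other controls and close to the siCSRP2 arrays. TLR3 on the siCSRP2 arrays lay near the array medians, so its fall may be understated. The adaptors MYD88 (-0.76, SE 0.16, adjusted p = 0.0261) and MAVS (-0.69, SE 0.16, adjusted p = 0.0368) fell as well (limma). TLR8, the next by adjusted p, was dim and did not pass (0.53, adjusted p = 0.0575). The cytosolic RNA sensors RIGI and IFIH1, named after their values were seen, differed by 0.30 (SE 0.18) and 0.53 (SE 0.24) and did not pass (limma adjusted p = 0.352 and 0.23).

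Of 17 receptors, kinases, transcription factors and negative regulators, 2 fell and none rose (11.8% past the threshold, and 3 higher and 5 lower at an unadjusted p under 0.05). IFNGR1, the ligand-binding chain of the interferon gamma receptor, fell from 5.50 ± 0.35 to 4.74 ± 0.14 (SD, n = 3; -0.76, SE 0.18, limma adjusted p = 0.0381). The IRF2 corepressor IRF2BP2 fell as well (-0.86, SE 0.19, limma adjusted p = 0.0307). STAT3 (-0.50, adjusted p = 0.0516) and JAK2 (-0.54, adjusted p = 0.0521) came next and did not pass (limma). Over sensing and signalling together, 5 of 38 genes passed, all falls, 13.2% against 7.34% of all genes, and the median difference was -0.01. With the dimmest 50% of genes left out, 7 of 28 passed (1 rise and 6 falls), against 1290 of all 7442 genes. With the replicate block 3 rose (TLR8, TICAM1 and EP300) and 10 fell, adding STAT3, JAK2, TBK1, UNC93B1 and STING1, 34.2% against 15.8% of all genes (2.67% rising, 13.1% falling). After quantile normalization 1 rose, TICAM1, and 2 fell, and the same split followed cyclic loess. Over all genes, as given above, both scalings gave more rises and fewer falls than the deposited values. The count was 0 without siControl 1, siControl 2, siCSRP2 2 or siCSRP2 3 (13, 16, 14 and 14 at an unadjusted p under 0.05). It was 3 without siCSRP2 1 and 11 without siControl 3. In each of these fits the count over all genes, given above, moved the same way.

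Antigen presentation and interferon gamma response genes gave 3 falls and no rise among 15 with a probe set (20% past the threshold against 7.34% of all genes, with a median of -0.13). At an unadjusted p under 0.05, 3 were higher and 4 lower, against 940 and 2583 of all 14884 genes. GBP4, an interferon-induced GTPase, fell from 4.89 ± 0.36 to 3.92 ± 0.29 (SD, n = 3; -0.97, SE 0.20, limma adjusted p = 0.0286). The chaperone calreticulin, CALR (-0.63, SE 0.12, adjusted p = 0.0197), and the peptide-trimming ERAP2 (-0.61, SE 0.15, adjusted p = 0.0487) also fell (limma). Of the 15 genes, 1 lay below the median brightness. With the dimmest 50% of genes left out, 4 of 14 passed (1 rise and 3 falls), against 1290 of all 7442 genes. The medians were then -0.12 and -0.15. The chemokines CXCL11 and CXCL10 bind the same receptor and lay on opposite sides. CXCL11 measured 5.51, 5.57 and 5.47 on siControl and 5.77, 6.35 and 6.18 on siCSRP2 arrays (0.58, SE 0.15, limma adjusted p = 0.055). CXCL10 measured 7.62, 7.69 and 7.32 against 5.94, 7.20 and 6.96 (-0.85, SE 0.29, limma adjusted p = 0.118). Neither passed, and both did with the replicate block, where 3 genes rose (CXCL11, ICAM1 and B2M) and 4 fell, 46.7% against 15.8% of all genes. CXCL11 rose after quantile normalization (1 rise, 1 fall) and after cyclic loess (1 rise, 2 falls), scalings that gave more rises over all genes as well. The count was 0 without siControl 1, siControl 2 or siCSRP2 2 (5, 4 and 5 at an unadjusted p under 0.05). It was 1 without siCSRP2 3, 2 without siCSRP2 1 and 5 without siControl 3. Here too the count over all genes moved the same way in each fit with 1 array left out.

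The genes whose profiles over the 6 arrays came closest to the extreme members were found by the root mean square difference of log2 values, each centred on the gene's own mean. Nearest to HERC5 were the prostaglandin receptor PTGER4 (0.146), the Wnt receptor FZD4 (0.146) and the homeobox factor HOXB9 (0.189). Of the members, IFIT2 ranked 20 and IFIT1 ranked 22 in nearness to HERC5 among all genes, RSAD2 ranked 41 and SAMD9 ranked 42. Nearest to XAF1 were the helicase MCM8 (0.0965), the kinase CDK5 (0.0998) and the membrane protein TMEM14A (0.102), each with siControl 3 below the other controls. BST2 ranked 407 and IRF9 ranked 1783 in nearness to XAF1. Likeness here is mostly the difference between the groups, which chose the members.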

How the data were processed

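Total RNA of transfected Hs578T cells was hybridised to 6 HuGene 2.0 arrays, 3 per siRNA. The values the authors deposited, 1 for each probe set on each array, are on a log2 scale to judge by their range. Per the submitters' processing notes Partek was used, with no version or role stated, and how background was corrected and arrays normalized is not given in the sources used here. Names came from the platform's annotation: 16098 of 53617 probe sets had 1 gene symbol, none had several and 37519 were unnamed. Each of the 16098 was found in the RefSeq gene table of GRCh38.p14. A gene was represented by its brightest probe set on average over 6 arrays, giving 14884 genes, with no filter. Dim values have no marked limit and can understate a change.

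limma 3.58.1 under R 4.3.3 (lmFit and eBayes, group the only term) gave two-sided p-values, adjusted by Benjamini-Hochberg over 14884 genes, with 0.05 as the threshold. Whether the replicates were separate cultures is not stated, so the p-values reflect no more than how far these arrays scatter, possibly for technical reasons. No pair of arrays shared more than 2 identical values. The fit was tested on simulated data. The 8 genes and the lists were chosen with earlier results of these data known. Named were the 8 genes, CSRP2, every list gene past the threshold (or, where fewer than 4 passed, the 4 smallest adjusted p of a list), relatives and partners of the 8 genes, and 3 nearest profiles each for HERC5 and XAF1. Other genes that passed with the replicate block and not in the fit without it, and RIGI and IFIH1, were named after their values were seen, as were the marker genes given singly. USP18 is on 2 lists.

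Over genes, the deviations of equally numbered arrays from their group means correlated at 0.30, 0.19 and 0.32, those of other pairs at -0.26 to 0.05. Every equally numbered pair exceeded 0.1, so the numbers were taken as pairing the arrays, which the data and not the labels give, and the block is given where it changed a count. Alternatives were the block, each array left out, quantile, cyclic loess and median scaling, the dimmest 50% of genes left out, the mean of a gene's probe sets and array weights.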

Additional observations from a re-analysis of the deposited data

How the results depend on the processing

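Each of the 8 genes kept its direction under all 13 alternatives, so 5 were higher and 3 lower in every one, a direction the choice of genes had fixed. Ranges of the log2 difference were 1.21 to 1.67 for HERC5, 0.63 to 1.04 for IFIT1, 0.76 to 1.02 for IFIT2, 0.77 to 1.11 for RSAD2, 0.67 to 0.96 for SAMD9, -1.51 to -1.01 for XAF1, -1.06 to -0.75 for BST2 and -0.60 to -0.33 for IRF9. The counts of list genes past the threshold (limma) were not stable. For other interferon-stimulated genes the count of 4 became 11 with the replicate block and 14 with array weights, and ran from 0 to 14 with 1 array left out. For sensing and signalling genes the count of 5 became 13 with the replicate block, 10 after median centring, 3 after quantile normalization, 3 after cyclic loess and 15 with array weights, and ran from 0 to 11 with 1 array left out. For antigen presentation genes the count of 3 became 7 with the replicate block and 6 with array weights, and ran from 0 to 5 with 1 array left out. The cause of these shifts was not tested. Over all genes the count of 1093 became 2348 with the replicate block, 2924 with array weights and 1557 after median centring. It was 876 after quantile normalization and 884 after cyclic loess, 91 without siControl 2 and 2620 without siControl 3. Of the 12 list genes past the threshold, 12 also passed with the replicate block, 7 after quantile normalization and 8 after cyclic loess. None of them passed without siControl 1 or without siControl 2, and 1 passed without siCSRP2 2 and 1 without siCSRP2 3. Without siCSRP2 1 and without siControl 3, 7 and 12 passed. None changed direction in any alternative. No detection calls were used, so precision at dim probe sets is not known, and the number of arrays limits every value.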
